A study of Rattus norvegicus with 49 samples.

Results

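Cryl1, Sort1, Plekhb1, Dipk2a and Cd300lg are 5 genes that were chosen by the size of their shift in the liver of female rats at the highest dose of furan, so the females at 0 and 2 mg/kg are the measured values that selected them. They were 5 of the 15154 genes named on the array and were found through the accession of each probe, which gave 7 of the 30367 probes, with a second probe for Sort1 and for Cd300lg. All 7 passed the filter on dim signals, as did 17658 probes in all. The rats were male and female F344, an inbred strain, aged 7 to 8 weeks when dosing began. Furan was given by gavage in corn oil on 5 days a week for 90 days. The doses were 2, 0.5, 0.12 and 0.03 mg/kg, and the controls (0 mg/kg) received the oil alone. Each of the 10 groups held 5 rats, with 1 array per rat, except for the males at 0.03 mg/kg with 4. The level of a transcript is given throughout as the log2 ratio of liver RNA over a universal rat reference RNA hybridised to the same array, so that 0 means as bright as the reference and a difference of 1 is a doubling.

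Furan is a small volatile ring compound that forms when food is heated. Liver cytochrome P450 opens the ring to a reactive dialdehyde, and the liver and its bile ducts are the known targets of the compound in rats. The 5 genes belong to no common pathway. Cryl1 codes for lambda-crystallin, an L-gulonate dehydrogenase of the route by which glucuronate is turned into pentoses. Sort1 codes for sortilin, a receptor with a Vps10 domain that sorts proteins between the Golgi and the endosomes and that in liver binds apolipoprotein B particles. Plekhb1 codes for evectin-1, a small membrane protein with a pleckstrin homology (PH) domain. Dipk2a codes for a divergent protein kinase of the secretory pathway, and Cd300lg for nepmucin, an immunoglobulin-type receptor of endothelial cells.

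The promoters are shown to set the bases ahead of the genes that rose beside those ahead of the genes that fell. Of the 5 genes, 4 matched the RefSeq promoter table of the GRCr8 build, all but Cd300lg. Each stretch has 300 bases, from 250 before to 50 after the start of transcription, written 5′ to 3′ on the strand of the gene. Capitals mark every match to 4 motifs searched on both strands. These were the antioxidant response element core TGACNNNGC, the AP-1 site TGAGTCA or its complement TGACTCA, the CCAAT box and the GC box GGGCGG, and no match of one motif overlapped that of another. The windows lie at chr15:35661514-35661813 on the minus strand for Cryl1, at chr2:198612245-198612544 on the plus strand for Sort1, at chr1:164425123-164425422 on the minus strand for Plekhb1 and at chr8:103969412-103969711 on the minus strand for Dipk2a.
Cryl1 promoter: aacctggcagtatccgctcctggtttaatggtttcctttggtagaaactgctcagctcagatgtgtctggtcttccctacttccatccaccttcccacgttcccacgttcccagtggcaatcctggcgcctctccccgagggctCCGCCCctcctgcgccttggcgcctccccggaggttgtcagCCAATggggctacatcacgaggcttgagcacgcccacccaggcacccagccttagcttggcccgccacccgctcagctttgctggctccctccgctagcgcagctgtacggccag
Sort1 promoter: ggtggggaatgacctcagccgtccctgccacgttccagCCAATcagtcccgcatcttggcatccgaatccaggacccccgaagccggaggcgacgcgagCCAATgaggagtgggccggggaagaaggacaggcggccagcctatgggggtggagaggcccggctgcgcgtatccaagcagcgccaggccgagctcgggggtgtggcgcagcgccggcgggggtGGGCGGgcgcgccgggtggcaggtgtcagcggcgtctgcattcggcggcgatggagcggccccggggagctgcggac
Plekhb1 promoter: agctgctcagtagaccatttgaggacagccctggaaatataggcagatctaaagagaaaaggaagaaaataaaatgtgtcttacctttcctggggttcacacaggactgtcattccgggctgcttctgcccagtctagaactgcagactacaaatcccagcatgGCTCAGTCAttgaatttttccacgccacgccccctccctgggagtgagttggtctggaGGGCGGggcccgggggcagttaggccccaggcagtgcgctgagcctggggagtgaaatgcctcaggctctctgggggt
Dipk2a promoter: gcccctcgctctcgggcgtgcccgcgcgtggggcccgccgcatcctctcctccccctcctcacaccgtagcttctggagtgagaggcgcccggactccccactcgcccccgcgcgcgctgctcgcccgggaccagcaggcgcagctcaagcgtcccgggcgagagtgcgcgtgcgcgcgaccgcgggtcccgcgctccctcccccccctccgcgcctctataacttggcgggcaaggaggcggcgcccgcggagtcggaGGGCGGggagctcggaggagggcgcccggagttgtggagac

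The stretches differed in base composition, with 62.7% GC for Cryl1, 72.3% for Sort1, 55% for Plekhb1 and 76.7% for Dipk2a, against a median of 51.7% over the 33469 promoters of the table. They held 16, 33, 6 and 43 CpG steps in that order, against a median of 7. A CCAAT box was present in the promoters of both genes that rose, at -65 to -61 from the start in Cryl1 and from -212 and -151 in Sort1, and in neither promoter of a gene that fell. It was present in 37.5% of all promoters. A GC box was found in all 4, as CCGCCC on the plus strand in Cryl1, and in 33.1% of all promoters. The antioxidant response element core was found only in Plekhb1, on the minus strand at -86 to -78, so that it reads GCTCAGTCA above, and in 12.1% of all promoters. None of the 4 held the AP-1 site, which 4.63% of all promoters did. A match is a description of the letters and not evidence that a factor binds there.

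The liver channel was well above background at 37.9% to 71.1% of the spots of 48 arrays. The array of male 26 at 0.03 mg/kg stood apart with 5.06%, and the levels of that group are limited by it. The 8 slides were entered as a block in the main fit, since slides 5 and 6 carried 0 control arrays and 10 treated ones. Slide 7 carried 0 control males and slide 8 carried 0 control females. Alternatives without the block are named as such. Of 4 genes known to differ by sex in rat liver, Cyp2c11, Cyp2c12 and Akr1b7 separated the labelled sexes with no overlap, and Cyp3a2 overlapped, from 1.21 in males and up to 2.41 in females. All 10 hepatocyte markers on the array were above background on 40 or more arrays. In whole liver, fewer cells of a type and less RNA per cell cannot be told apart.

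The leading probe of a gene was the one with the brightest liver signal. It was above background on 48 arrays for Cryl1, Plekhb1 and Dipk2a, on 44 for Cd300lg and on 37 for Sort1, and the second probes of Sort1 and Cd300lg on 34 each. Sort1 was the only gene of the 5 whose mean level was below the reference, and it was so in all 10 groups. Dipk2a and the second Cd300lg probe rested on 1 spot per array and the other probes on 2.

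**Figure D1:**
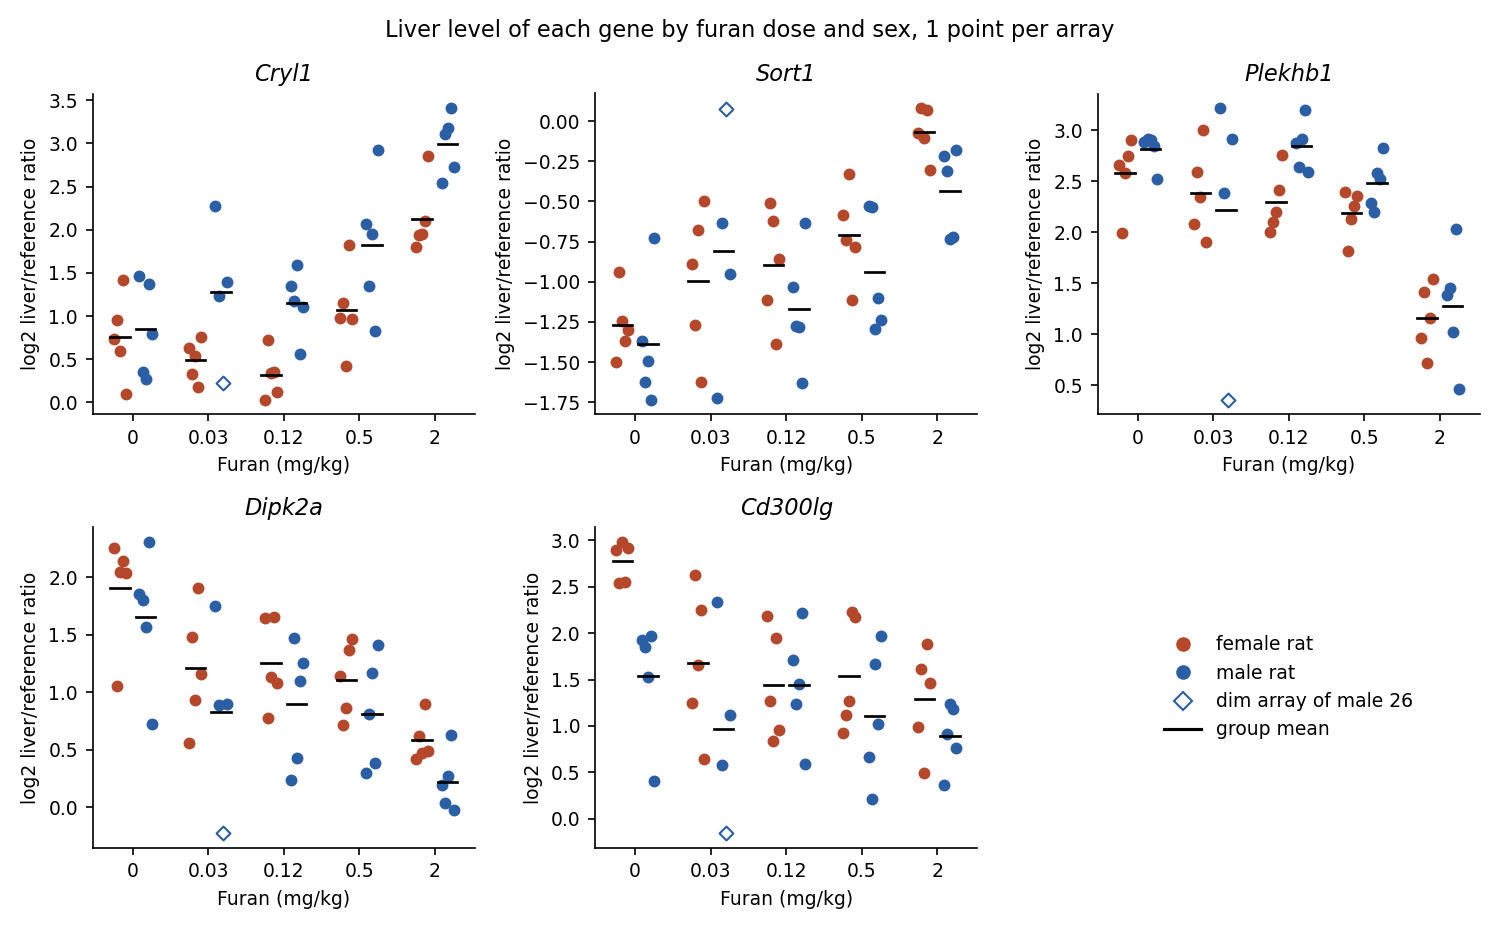
Log2 liver/reference ratio of the leading probe of each gene (vertical axis) by furan dose in mg/kg (horizontal axis), with 1 point per array, females in red, males in blue, the dim array of male 26 as an open diamond and group means as bars. In both sexes the group means of Cryl1 and Sort1 were highest and those of Plekhb1 and Dipk2a lowest at 2 mg/kg, and the mean of Cd300lg was highest in female controls.

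The females at 0 and 2 mg/kg are the animals on which the genes were picked, so their values describe the choice and were not tested. Cryl1 lay at 0.09, 0.59, 0.74, 0.95 and 1.42 in control females and at 1.80, 1.94, 1.95, 2.10 and 2.86 in females at 2 mg/kg. Sort1 lay at -1.50, -1.37, -1.30, -1.24 and -0.94 in controls and at -0.30, -0.10, -0.07, 0.07 and 0.08 at 2 mg/kg. Both were thus higher in every female at 2 mg/kg than in any control female. The levels listed here and in the next paragraph have no slide block. Of the treated females, 1 was on slide 5 and 2 were on slide 8, and these slides carried 0 control females. The share of all probes with such a separation was not counted in females.

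Plekhb1 lay at 1.99, 2.58, 2.66, 2.74 and 2.91 in control females and at 0.72, 0.96, 1.16, 1.41 and 1.54 at 2 mg/kg. Dipk2a lay at 1.06, 2.04, 2.04, 2.14 and 2.26 in controls and at 0.42, 0.48, 0.49, 0.62 and 0.90 at 2 mg/kg. For both genes every treated female was below every control, although control female 4 came close to the treated ones for Dipk2a. Cd300lg lay at 2.55, 2.55, 2.89, 2.91 and 2.99 in controls and at 0.49, 0.99, 1.46, 1.61 and 1.88 at 2 mg/kg. The arrays of this leading probe again did not overlap, and 4 of the 5 treated ones were above background. The second probe of Cd300lg did overlap, at 0.87 to 1.29 in controls and -0.06 to 0.97 at 2 mg/kg. At 2 mg/kg it was above background in 2 of 5 females.

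With slide as a block, the changes in females at 2 mg/kg were 1.60 ± 0.34 (SE) for Cryl1, 0.78 ± 0.15 for Sort1, -1.05 ± 0.28 for Plekhb1, -0.81 ± 0.19 for Dipk2a and -0.82 ± 0.24 for Cd300lg. Without the block they were 1.37, 1.20, -1.42, -1.33 and -1.49, so that those of Sort1, Dipk2a and Cd300lg were more than 1.5 times as large. Among 11377 tested probes with a gene name, Cryl1 had the 5th largest rise under either fit, while Sort1 moved from the 10th to the 56th with the block. Plekhb1, Dipk2a and Cd300lg had the 16th, 43rd and 40th largest fall with the block and the 31st, 47th and 22nd without it. The choice had no numeric limit, so no gene lies just inside or just outside it. Over all tested probes, 0.657% were called in females at 2 mg/kg, where a call needed an adjusted p no higher than 0.05 together with a 1.5-fold change or more.

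The males were not used in the choice, and they were tested to see whether the 5 genes moved in them too. At 2 mg/kg 4 of the 5 genes were called in males, Cryl1 and Sort1 upwards and Plekhb1 and Dipk2a downwards, while 3.83% of all tested probes were called. Cryl1 changed most, by 4.90-fold, and Cd300lg was the gene that was not called. The arrays of treated and control males did not overlap for Cryl1, Plekhb1 and Dipk2a, against 4.25% of all probes with values on every array of both groups.

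Cryl1, the gulonate dehydrogenase, lay at 0.27, 0.35, 0.79, 1.37 and 1.47 in control males and at 2.54, 2.73, 3.11, 3.17 and 3.41 at 2 mg/kg. The lowest treated male was thus more than 1 log2 unit above the highest control. The rise was 2.29 ± 0.33 (95% confidence interval 1.62 to 2.96), with an adjusted p of 2.2e-05 by limma. On the 3 slides that carried both a control and a treated male, the treated array was higher by 1.94, 1.80 and 1.93.

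Sort1, the sorting receptor, lay at -1.73, -1.62, -1.49, -1.37 and -0.73 in control males and at -0.74, -0.72, -0.31, -0.22 and -0.18 at 2 mg/kg. Control male 6 was the 1 array that reached into the treated range, and the other 4 controls lay below it. Neither Sort1 probe was above background in control male 6. The rise was 0.74 ± 0.15 (0.44 to 1.04), or 1.67-fold, with an adjusted p of 0.00083 by limma. The second probe rose by 0.55 ± 0.13 with an adjusted p of 0.0038, but its 1.46-fold change was just under the fold limit. The log ratios of the scanner software, which add no offset to dim signals, gave a larger rise of 1.89 for the leading probe.

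Plekhb1, the PH domain protein, lay at 2.52, 2.85, 2.89, 2.91 and 2.92 in control males and at 0.46, 1.02, 1.38, 1.46 and 2.04 at 2 mg/kg. The controls were close together and the treated males were spread over more than 1 log2 unit below them. The fall was -1.45 ± 0.27 (-2.00 to -0.89), or 2.73-fold, with an adjusted p of 0.00052 by limma. Within the 3 shared slides the differences were -0.85, -1.82 and -2.06.

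Dipk2a, the secretory pathway kinase, lay at 0.73, 1.57, 1.80, 1.86 and 2.31 in control males and at -0.03, 0.04, 0.20, 0.27 and 0.63 at 2 mg/kg. Control male 6, which was high for Sort1, was the lowest control here, just above the highest treated male. The fall was -1.20 ± 0.19 (-1.58 to -0.82), or 2.29-fold, with an adjusted p of 7.1e-05 by limma, and it was -1.23, -2.04 and -0.75 within the shared slides.

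Cd300lg, the endothelial receptor, lay at 0.41, 1.52, 1.85, 1.93 and 1.97 in control males and at 0.37, 0.76, 0.91, 1.18 and 1.24 at 2 mg/kg. Apart from control male 6, all controls were above all treated males. Control male 6 and treated male 81, the latter at 0.37, were not above background for this probe. The difference with slide as a block was -0.25 ± 0.24 (-0.73 to 0.23), with an adjusted p of 0.53 by limma, and the second probe gave -0.31 ± 0.21 with an adjusted p of 0.36. Without the block it was -0.65. The interval holds both no change and a fall of more than 1.5-fold. Within the shared slides the treated male was lower by 0.75 and 0.74 on slides 2 and 4 and higher by 0.35 on slide 8, where the control was male 6.

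The exact permutation test over the 10 male arrays, two-sided and with no block, gave p = 0.00794 for Cryl1, Plekhb1 and Dipk2a, which is the smallest that 252 splits can give. It gave an exact p of 0.0159 for Sort1 and 0.103 for Cd300lg. The 4 genes kept their calls when any 1 of the male arrays at 0 or 2 mg/kg was left out, with rises of 2.05 to 2.50 for Cryl1 and 0.65 to 0.79 for Sort1 and falls of -1.62 to -1.25 for Plekhb1 and -1.29 to -1.03 for Dipk2a. From the 24 male arrays alone, with no female array in the estimate of the spread, the changes of Cryl1, Sort1, Plekhb1 and Dipk2a were 2.32, 0.77, -1.52 and -1.24, and limma gave adjusted p values of 0.0067, 0.017, 0.024 and 0.013.

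**Figure D2:**
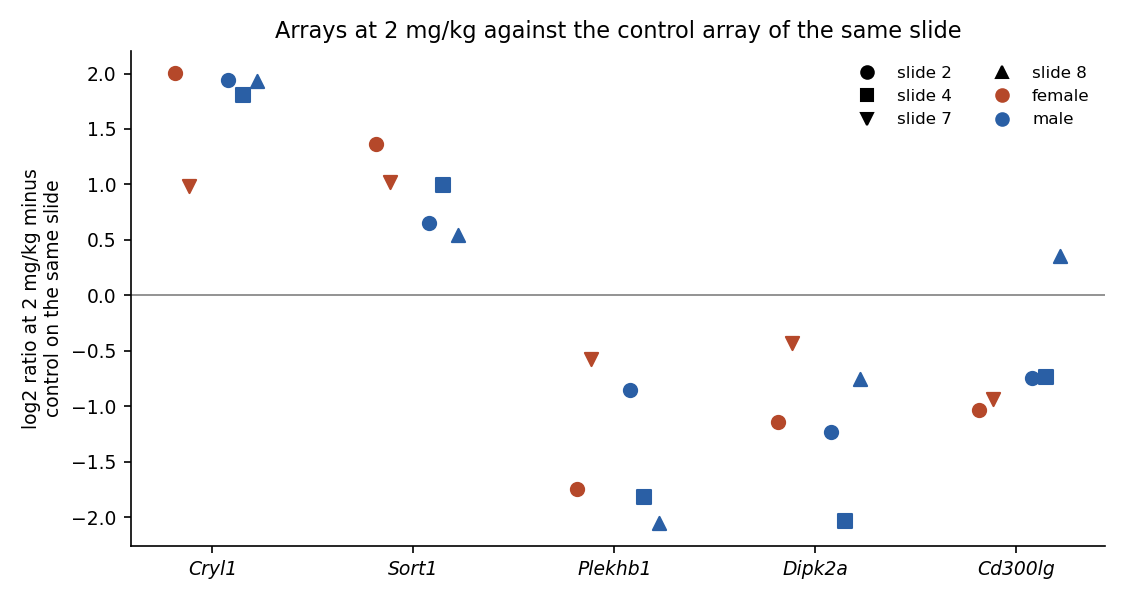
Difference in log2 liver/reference ratio between an array at 2 mg/kg and the control array of the same sex on the same slide (vertical axis) for each gene (horizontal axis), with females in red, males in blue and the symbol giving the slide. All 5 slide pairs lay above 0 for Cryl1 and Sort1 and below 0 for Plekhb1 and Dipk2a, and the male pair of slide 8 lay above 0 for Cd300lg.

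The changes of both sexes at 2 mg/kg can be set side by side but not tested against each other, since the female arrays chose the genes. The male minus the female change was 0.69 ± 0.46 (SE) for Cryl1, at 2.29 in males and 1.60 in females, and -0.04 ± 0.20 for Sort1. It was -0.39 for both Plekhb1 (SE 0.38) and Dipk2a (SE 0.26), and 0.57 ± 0.33 for Cd300lg, at -0.25 in males and -0.82 in females. 

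The lower doses were compared with the same control males to see from which dose the genes differed. At 0.5 mg/kg 0 of the 5 genes were called by limma, against 0.142% of all tested probes. Cryl1 lay at 0.83, 1.35, 1.95, 2.07 and 2.93 at that dose, so that 3 of 5 males were above all controls. The difference was 1.02 ± 0.33 (0.34 to 1.70), with an unadjusted p of 0.0042 and an adjusted p of 0.27 by limma. It was 0.64 without control 3, and on slides 1 and 3, which carried both groups, it was 1.68 and 2.58. Dipk2a lay at 0.30, 0.39, 0.81, 1.17 and 1.41, with a difference of -0.67 ± 0.19, an unadjusted p of 0.0012 and an adjusted p of 0.17 by limma. Sort1, Plekhb1 and Cd300lg differed from controls by 0.22 ± 0.15, -0.25 ± 0.28 and 0.01 ± 0.24.

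At 0.12 mg/kg 0 of the 5 genes were called by limma, against 0.176% of all tested probes. Dipk2a was the gene with the smallest p, at 0.24, 0.43, 1.10, 1.25 and 1.47 over the arrays and a difference of -0.64 ± 0.19 (unadjusted p 0.0015, adjusted p 0.18 by limma). The other 4 genes differed by 0.07 to 0.43. At 0.03 mg/kg 0 of the 5 genes and 0% of all tested probes were called by limma, while 4321 probes had an unadjusted p under 0.05. The differences at that dose were 0.57 ± 0.36 for Cryl1, 0.35 ± 0.16 for Sort1, -0.48 ± 0.29 for Plekhb1, -0.47 ± 0.20 for Dipk2a and -0.11 ± 0.26 for Cd300lg. Without the dim array they were 0.96 for Cryl1, 0.090 for Sort1, 0.14 for Plekhb1, -0.20 for Dipk2a and 0.24 for Cd300lg, so that each rested in size or sign on that array. Cryl1 was 0.20 without male 22 and 0.32 without control 3.

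In females the same 5 control arrays enter each dose, and they were part of the choice, so the lower doses are given as values. Dipk2a stood below controls at each dose, by -0.43 at 0.03, -0.36 at 0.12, -0.41 at 0.5 and -0.81 at 2 mg/kg, next to -0.47, -0.64, -0.67 and -1.20 in males. The male value at 0.03 mg/kg was -0.20 without the dim array. In both sexes the group median of spots above background was also below that of controls at each dose. In males it was 65.1% in controls and 47%, 60.2%, 60.9% and 56.1% with rising dose. Its part in the course of Dipk2a was not tested. Plekhb1 differed by 0.06, -0.06 and -0.14 at the lower female doses before its -1.05 at 2 mg/kg. Cryl1 differed by -0.09, -0.31 and 0.47 and Sort1 by 0.04, 0.07 and 0.27 at those doses.

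Cd300lg had another course in females. Its leading probe was below controls by -0.66 at 0.03, -0.82 at 0.12, -0.79 at 0.5 and -0.82 at 2 mg/kg, so that the lowest dose was close to the highest. The group levels were 2.78 ± 0.21 (SD, n = 5) in controls and then 1.68 ± 0.79, 1.44 ± 0.60, 1.54 ± 0.61 and 1.29 ± 0.55. The second probe disagreed at the lowest dose, with -0.01 at 0.03, -0.33 at 0.12, -0.46 at 0.5 and -0.58 at 2 mg/kg. The share of spots above background moved in the same way, with a group median of 64.8% in control females and 57.4%, 52.4%, 53.2% and 51.8% with rising dose, and its part in the level was not tested.

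A comparison in females that used none of the arrays of the choice was 0.5 against 0.03 mg/kg. Here 0 of the 5 genes and 0% of all tested probes were called by limma, with 1373 probes at an unadjusted p under 0.05. Cryl1 lay at 0.18, 0.33, 0.54, 0.63 and 0.75 at 0.03 mg/kg and at 0.42, 0.97, 0.98, 1.15 and 1.82 at 0.5 mg/kg, so that 4 of 5 females at the higher dose were above all at the lower. The difference was 0.56 ± 0.33 (-0.11 to 1.22), with an adjusted p of 0.80 by limma, and it was 0.32 without female 70 at 0.5 mg/kg. On the 3 slides with both groups it ran from -0.21 to 1.49. Without the block the difference was 0.58, with an exact permutation p of 0.0317 (two-sided, 1 of 5 genes compared). The other 4 genes differed by -0.20 to 0.22.

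**Figure D3:**
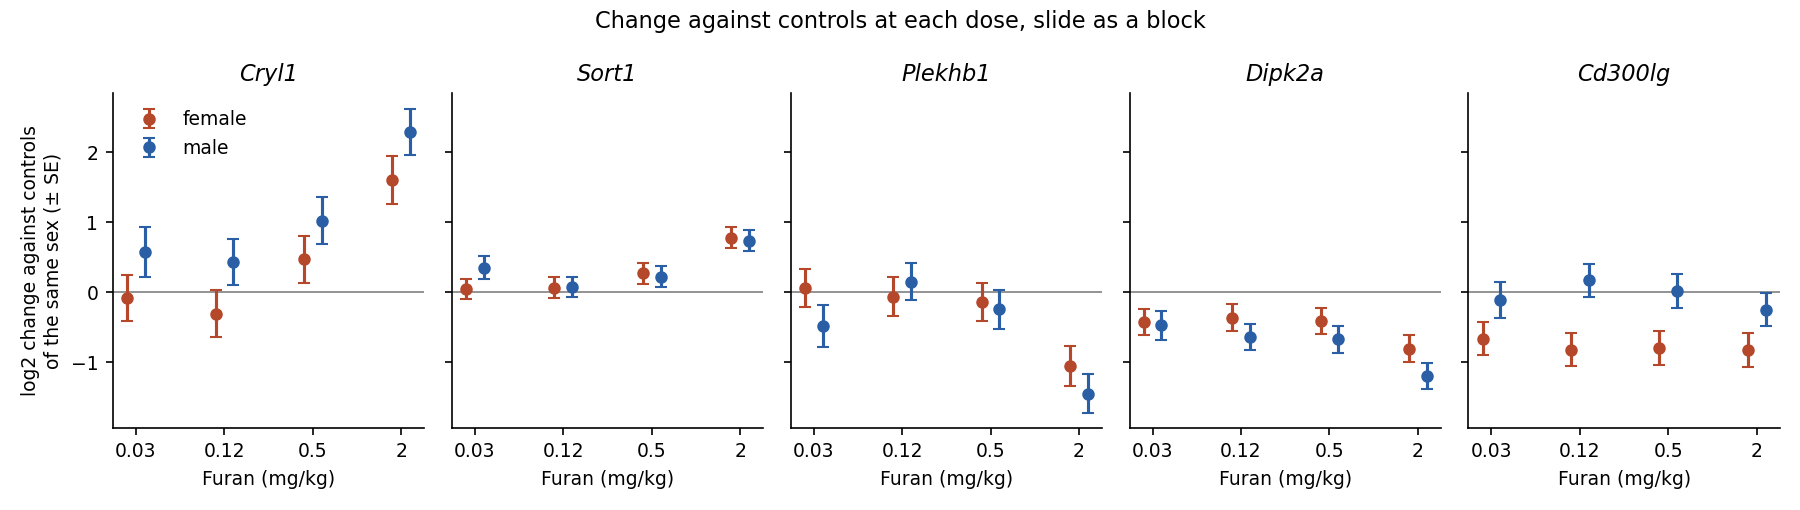
Change of each gene against the controls of the same sex (vertical axis, log2 units, points with SE bars, slide as a block) at each furan dose in mg/kg (horizontal axis), with females in red and males in blue. The changes at 2 mg/kg ran from -1.45 for Plekhb1 to 2.29 for Cryl1 in males, and the female changes of Cd300lg lay between -0.82 and -0.66 from 0.03 to 2 mg/kg.

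Sex differences were tested at 0.12 and 0.5 mg/kg together, where no array had been used for the choice. Cryl1 was higher in males and was the 1 gene of 5 called, against 4.86% of all tested probes. Its levels were 1.15 ± 0.38 in males and 0.31 ± 0.27 in females at 0.12 mg/kg and 1.82 ± 0.79 and 1.07 ± 0.50 at 0.5 mg/kg (SD, n = 5 each). The difference was 0.75 ± 0.23 (0.28 to 1.21), or 1.68-fold, with an adjusted p of 0.019 by limma, and males were higher in 5 of 6 pairs on the same slide. The call was lost with median centring (0.66, adjusted p 0.069 by limma) and without male 44 at 0.12 mg/kg (0.69, adjusted p 0.050 by limma). Dipk2a was lower in males by -0.46 ± 0.13, with an adjusted p of 0.012 by limma, but its 1.37-fold difference was below the fold limit. Without the slide block it was -0.33, with an adjusted p of 0.41 by limma. The differences of Plekhb1, Cd300lg and Sort1 were 0.41 ± 0.19, -0.29 ± 0.17 and -0.18 ± 0.10, and limma gave adjusted p values of 0.13, 0.22 and 0.24.

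Lists of genes related to each of the 5 were followed in males at 2 mg/kg. In the route around Cryl1, 2 of 12 genes rose, against 3.83% of all tested probes called in either direction. The median change was -0.30, against -0.02 over all tested probes. Akr1a1, the aldehyde reductase that makes the gulonate on which Cryl1 acts, rose by 0.87 ± 0.12 with an adjusted p of 1.5e-05 by limma. Ugdh, which makes UDP-glucuronate, rose by 0.86 ± 0.18 with an adjusted p of 0.0015 by limma. Under 8 other settings Akr1a1 was called in 7 and Ugdh in 5, and both stayed above 0 in each, while in the liver channel alone 0 genes of the list rose and 2 fell. Of the other 10 genes, 9 lay below 0, with -0.54 ± 0.29 for Gulo, the enzyme that takes gulonate towards vitamin C, as 1 that was not called (adjusted p 0.22 by limma).

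Around Sort1, 0 of 14 Vps10 receptors and partners of sortilin were called by limma, with a median change of 0.03. Of the 11 genes of apolipoprotein B particles given here, 0 were called by limma and 9 lay below 0, with a median of -0.37, while 2 fell without the dim array, 2 with scanner log ratios and 2 with an offset of 16 in the background correction. By limma, 0 of 7 PH domain relatives of Plekhb1, 0 of 7 secretory pathway kinases and 0 of 4 CD300 relatives were called, with medians of -0.01, -0.07 and -0.25, while 1 PH domain relative rose under 5 of 8 other settings. At the lower male doses and in females at 0.5 against 0.03 mg/kg 0 genes of any of these 6 lists were called by limma. Between males and females at 0.12 and 0.5 mg/kg, limma called Sorl1, Trib1, Ugp2 and Fam20a higher in males. The differences were 1.02, 0.73, 0.68 and 0.62, and Mttp was called lower, by -0.63. Called were 1 of 14 genes of the Vps10 list, 1 of 12 around Cryl1 and 1 of 7 kinases. Of the 11 genes of apolipoprotein B particles 1 was called higher and 1 lower, and of the PH domain and CD300 relatives 0. Of all tested probes 4.86% were called. Without the slide block 0 kinases and 1 gene of apolipoprotein B particles were called, with 1 each of the Vps10 list and around Cryl1. Sorl1 was above background on fewer than 40 arrays.

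**Figure D4:**
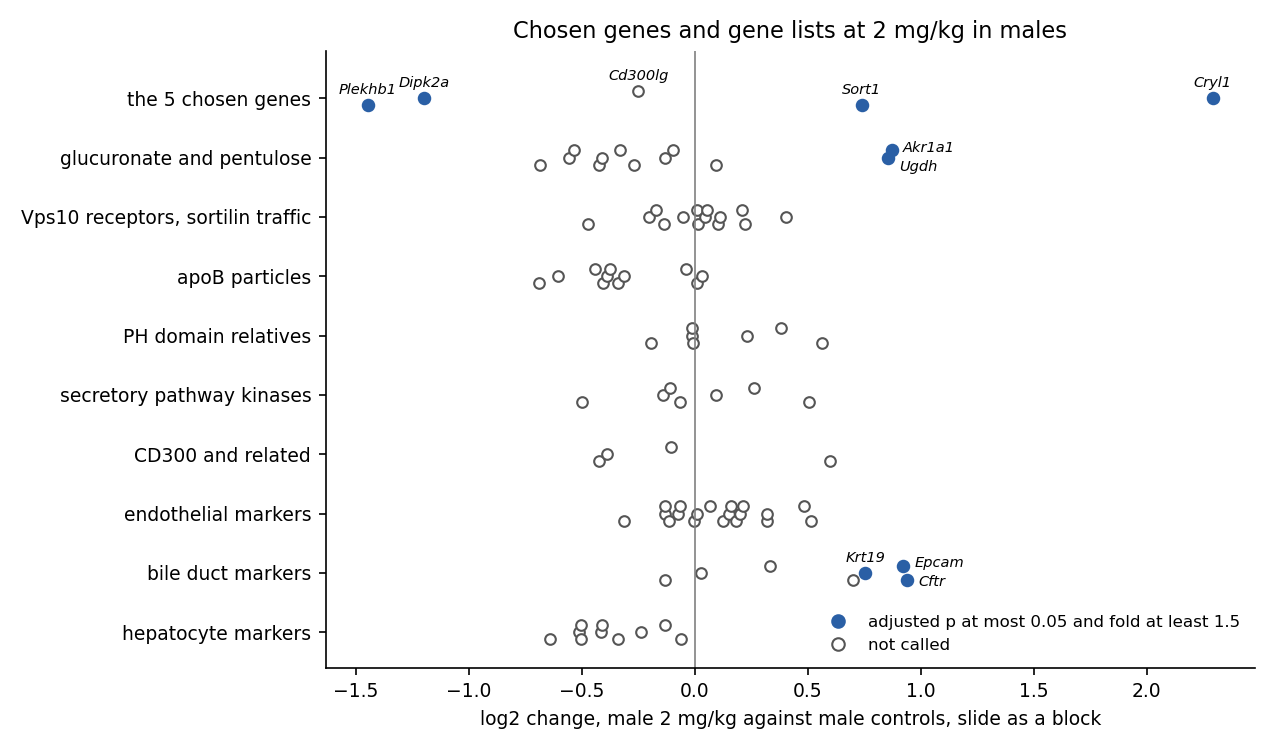
Change in males at 2 mg/kg against control males (horizontal axis, log2 units, slide as a block) for the 5 genes and for each tested gene of the related lists and cell type markers (rows), with called genes filled. Cryl1 lay furthest to the right at 2.29, and 3 bile duct markers, Akr1a1 and Ugdh were the called genes of the lists shown.

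Markers of liver cell types were set beside these changes. In males at 2 mg/kg 3 of 7 bile duct markers rose, against 3.83% of all tested probes called in either direction. Epcam rose by 0.92, Cftr by 0.94 and Krt19 by 0.76 (adjusted p of 0.00032, 0.0018 and 0.023 by limma). The list had a median of 0.70. Under 8 other settings Epcam and Cftr were called in 8 and Krt19 in 6. The change of Cftr ran from 0.64 to 3.17 over them. Without the slide block 2 of the list rose, with male arrays only 2 and without the dim array 4. Only 4 of the 8 bile duct markers on the array were above background on 40 or more arrays, and Cftr was not among them. The summed ratio of the 7 markers ranged from 4.02 to 5.93 in control males and from 4.82 to 10.3 at 2 mg/kg. Of the 10 hepatocyte markers 0 were called by limma and all lay below 0, with a median of -0.41, while 4 fell with scanner log ratios and 4 with an offset of 16 in the background correction. Without the dim array 1 fell. In the liver channel alone 1 rose and 1 fell, with a median of -0.12. The part of either list in the changes of Cryl1, Sort1, Plekhb1 and Dipk2a was not tested. Of the macrophage, stellate cell and lymphocyte markers 0 were called by limma, although 2 stellate cell markers rose without the dim array. Between the sexes at 0.12 and 0.5 mg/kg the macrophage marker Adgre1 was lower in males, by -0.61 (adjusted p of 0.0098 by limma). It was the 1 called of 11 macrophage markers, against 4.86% of all tested probes, and 0 of them were called without the slide block. Of the 11, 8 lay below 0 and 3 above, with a median of -0.29.

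For Cd300lg the endothelial markers are the closest measure of its cell type. Of 32 listed, 24 were on the array and 19 were tested, and 0 were called by limma in males at 2 mg/kg, with a median change of 0.13 with the slide block and -0.12 without it. Their summed ratio ranged from 97.3 to 259 in control males and from 80.3 to 227 at 2 mg/kg. In females it ranged from 155 to 276 in controls and from 106 to 227 at 2 mg/kg, with a median change of 0.02 with the block and -0.48 without it. Of the 24 on the array, only 13 were above background on 40 or more arrays, and none was below background on every array. The part of these markers in the level of Cd300lg was not tested.

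The 5 genes were also compared with each other over the 38 arrays that had not been used for the choice, without the dim array and after sex and slide were taken out. These correlations describe arrays that share the furan doses, and they carry no test. The share of spots above background was not taken out. It differed between arrays of the same slide, as on slide 7 from 51.2% in male 27 at 0.03 mg/kg to 69.6% in male 68 at 0.5 mg/kg. Its part in the correlations here and in the next paragraph was not tested. Pearson's r was 0.73 between Cryl1 and Sort1, 0.61 between Plekhb1 and Dipk2a and -0.82 between Sort1 and Plekhb1. Cryl1 correlated with Plekhb1 at -0.68 and with Dipk2a at -0.58, and Sort1 with Dipk2a at -0.59. Cd300lg was the least tied, with r of -0.14 to Cryl1, 0.16 to Dipk2a, -0.42 to Sort1 and 0.40 to Plekhb1.

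Over the same arrays and 9839 genes, the patterns most like that of Cryl1 were those of Wdr31, Camk2n1 and Dcakd, with r of 0.88, 0.87 and 0.86. Tusc3, Ica1 and Ptpn13 were nearest to Sort1, with r of 0.89, 0.88 and 0.86. Fgl1, Sdc2 and Cfhr4 were nearest to Plekhb1, with r of 0.94, 0.92 and 0.92. Fgl1 codes for a protein that hepatocytes secrete and Sdc2 for a heparan sulfate proteoglycan of the cell surface. Cldn2, Rcbtb1 and Parp14 were nearest to Dipk2a, with r of 0.86, 0.82 and 0.81, and Cldn2 codes for a claudin of tight junctions. P2ry12, a purine receptor of platelets and microglia, Cpne8 and a gene with no descriptive symbol were nearest to Cd300lg, with lower r of 0.80, 0.78 and 0.76.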

How the data were processed

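Liver RNA (Cy5) was hybridised with a universal rat reference RNA (Cy3) on 2-colour Agilent arrays with no dye swaps, 49 arrays on 8 slides. Per the file headers, slides were read at 3 micrometres by Agilent Feature Extraction 10.7.3.1. The deposited scanner files give the median intensity of each spot and its background. Per the file headers they also hold a log10 ratio of liver over reference, background subtracted and dye normalised by the software. A log2 ratio that the authors normalised in R stands in the deposited series matrix.

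Intensities were background corrected (normexp, offset 50) and loess normalised within arrays, with limma 3.58.1, R 4.3.3 and the data.table package (version 1.17.8). Spots marked as not uniform or deviating were left out and the spots of a probe averaged. Tests were limited to probes whose liver channel passed the software's background limit on 4 or more arrays of any group. Probes were named by accession through RefSeq (GRCr8, names only), 18004 of 30367 (59.3%). The limma model had 1 mean per sex and dose, slide as a block and a shared spread, and p-values were adjusted over 17658 probes by Benjamini-Hochberg. A call needed an adjusted p of at most 0.05 and at least 1.5-fold. Each group is a set of different rats, and the number of arrays limits the precision.

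The genes named are the 5 picked ones with all probes, the called genes of each list and up to 3 further of its largest changes, and, per picked gene, the 3 genes of most similar pattern. The genes that check the labelled sex fall outside this rule and were chosen after their values were seen. The 5 genes, lists and tests were chosen with earlier results of these data known, and 1 listed gene is not reported here. The model was tested on simulated data. Alternatives changed the slide block, normalisation, background offset, source of values, channel, filter, probe summary and single arrays, and 3 further ones were chosen after seeing the data (male arrays alone, and the series matrix or the set without the dim array, both with no slide block). Of the 49 matrix columns, 7 followed the scanner file of the same label best, 39 another array of the same group and 3 none, over 10516 probes. The matrix was therefore used only by group.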

Additional observations from a re-analysis of the deposited data

Results flagged for a closer look

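Of 70 sets of arrays (7 probes in 10 groups), 5 held an array far from the others of its group by Dixon's test, and chance gives about 1 in 20. Control male 6 was such an array for 2 genes, at 0.41 for Cd300lg, where the other control males lay between 1.52 and 1.97, and at 2.52 for Plekhb1, where they lay between 2.85 and 2.92. Its Cd300lg value was not above background. Its array had 45.5% of spots above background, where the median of the control males was 65.1%. Control female 4 lay at 1.06 for Dipk2a, below the other 4 controls at 2.04 to 2.26. Female 92 at 2 mg/kg lay at 2.86 for Cryl1, above the other 4 at 1.80 to 2.10. For the second probe of Cd300lg, female 32 at 0.03 mg/kg lay at 0.28, below the rest of its group.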

How the results depend on the processing

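The 4 calls in males at 2 mg/kg (Cryl1, Sort1, Plekhb1 and Dipk2a) held under each alternative and with any 1 array left out, except that the filter on 40 arrays removed Sort1. The cause of each move below was not tested. Probes called in males at 2 mg/kg (677) were 392 without the slide block, 1021 with scanner log ratios, 439 with male arrays only, and 437 to 1014 with 1 array left out, the lowest without male 87.

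At 0.5 mg/kg in males (25 called) they were 0 without the block, 14 with median centring and with scanner log ratios, 3 in the liver channel alone, 15 with an offset of 16, 64 without the dim array, 13 with no filter, 7 in the matrix, 8 with neither block nor dim array, 0 with male arrays only, and 0 to 35 with 1 array of either group left out (0 without control 3). At 0.12 mg/kg (31) they were in that order 7, 11, 14, 3, then 54 without the dim array, 17, 8, 8 and 3, and 10 to 38 with 1 left out (10 without control 5). At 0.03 mg/kg (0) they were 3 in the liver channel, 1 with an offset of 16 and 0 to 2008 with 1 left out (2008, 1098 and 1456 without males 22, 25 and 27, which leaves the dim array among 3). In females at 0.5 against 0.03 mg/kg (0) scanner log ratios gave 118, and 1 left out gave 0 to 180, the highest without female 68. Between the sexes (858) scanner log ratios gave 1865, and 1 left out 750 to 968. Of the 5 genes (1 called) median centring gave 0, scanner log ratios 2 (with Dipk2a at -0.59), and 1 left out 0 to 1.

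Only differences that were not called changed sign. In males at 0.5 mg/kg Cd300lg was -0.43 without the block (with or without the dim array), -0.61 with scanner log ratios, -0.092 in the liver channel, -0.068 with an offset of 16, -0.17 over both probes, -0.52 in the matrix and -0.040 with male arrays only (-0.090 to 0.11 with 1 left out). At 0.12 mg/kg it was -0.10 without the block (with or without the dim array) and -0.24 in the matrix (-0.059 to 0.36). At 0.03 mg/kg Plekhb1 was 0.11 in the liver channel, 0.14 without the dim array, 0.041 in the matrix and 0.025 with neither block nor dim array, and Cd300lg 0.24 without the dim array. In females at 0.5 against 0.03 mg/kg Dipk2a was -0.10 without the block (in limma, without the dim array and in the permutation test), -0.033 in the liver channel and -0.11 in the matrix (-0.054 to 0.077), and Cd300lg 0.0094 with scanner log ratios (-0.21 to 0.026).

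Animal numbers shared by males and females of a dose belong to different rats, with correlations of -0.27 to 0.57 between their deviations over the 8 shared numbers. With these numbers as a replicate block, 858 probes and 1 of the 5 genes were called between the sexes, with Cryl1 at 0.80. No paired analysis was possible within a sex because doses share no number there. The matrix with a slide block was not run, since its columns follow other arrays. Sort1 and the second Cd300lg probe, the dimmest, were above background on 37 and 34 arrays, which limits their values. Median centring and the liver channel moved the median of all probes in males at 0.03 mg/kg to 0.14 and -0.16.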
